A study of Canis lupus familiaris with 23 samples.

Results

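RGS2 and 6 other genes of the cAMP pathway, CREM, PDE4B, PDE4D, SIK1, GNAS and CREB1, were followed through dog skin tissue and epidermal organoids. They were taken by name, 7 of 20448 entries in the tissue and expansion files, and all 7 were found. The set was chosen by name with these data known, and selected on their CPM values with and without a Tgf-beta inhibitor and Forskolin. The members' values in those comparisons are therefore given as a description, without a test. So are RGS2, PDE4B and PDE4D in organoids against tissue, where their levels with and without the inhibitor enter. Tests of members by passage, of differentiation medium and of follicle-derived organoids against other groups reuse libraries of those comparisons. Their p-values are thus no independent evidence.

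Cyclic AMP is made by adenylyl cyclases when a receptor activates the stimulatory G protein alpha subunit, and Forskolin activates the cyclases directly. It switches on protein kinase A, which phosphorylates CREB on the promoters of many early response genes, and phosphodiesterases end the signal by breaking cAMP down. Several CREB targets feed back on the pathway, among them CREM, which also yields the repressor ICER, the PDE4 enzymes and the kinase SIK1. RGS2 speeds up the shut-off of G protein signals, mainly through Gq, and is a known cAMP-induced gene in several cell types. In skin, cAMP signalling acts in keratinocyte growth and in pigmentation.

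RNA was counted by CEL-seq2, a bulk method that reads transcripts from their 3′ ends, in 23 libraries of 12 groups. Later follicle-derived organoids (passages 3 to 6) gave 2 libraries each in 3 kinds of differentiation medium: lacking Noggin, R-Spondin-1 and Forskolin, lacking only the first 2 of these, and complete. Interfollicular organoids, all with a Tgf-beta inhibitor, gave 1 library at passages 3 to 6 and 1 at passages 0 to 1. Follicle-derived organoids with the inhibitor gave 2 later and 3 early libraries, and those whose labels name no inhibitor gave 2 later and 2 early ones. All organoids were taken at day 7. Tissue gave 2 libraries each of hair follicles, mixed from growing (anagen) and resting (telogen) phases, of interfollicular epidermis and of whole skin. Noggin blocks BMP ligands and R-Spondin-1 enhances Wnt signals. Whether the expansion media held Forskolin, and whether replicates come from separate dogs or cultures, is not given in the sources used here, so p-values measure only the spread between these libraries, which may be technical.

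Libraries held 84391 to 4792471 counts in gene entries, the fewest in interfollicular epidermis replicate 2. Levels are CPM, counts divided by a TMM-adjusted library size and set to a common total, and a count of 0 allows 0.684 to 23.1 CPM (3 counts of the scaled total), which covers counting error only. Mitochondrial transcripts took 5.35 to 26.9% of counts, both extremes in early organoids with the inhibitor. In follicle-derived expansion organoids, the summed Tgf-beta targets of a check list (9 of 10 listed) stood at 69.3 to 99.3 CPM with the inhibitor. Without it they stood at 184.0 to 232.0 CPM, with no overlap. The differentiation libraries stood higher, at 248.7 to 868 CPM. Of the interfollicular organoids, all labelled with the inhibitor, the early library stood at 71.2 CPM and the shallow later one at 246.5 CPM. The later one was thus above every follicle-derived expansion library without the inhibitor and below every differentiation library. Results that rest on the later library are therefore also given without it. Keratinocyte markers were present throughout, KRT5 at 15107 CPM or more in every expansion library and 2368 CPM or more in every tissue library. In these bulk samples, fewer cells of a type and less RNA per cell cannot be told apart.

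RGS2 was higher in every library labelled with the Tgf-beta inhibitor than in any other. In follicle-derived organoids with the inhibitor it stood at 381.9 and 391.7 CPM in the later libraries and at 174.2, 144.4 and 73.2 CPM in the early ones, and without it at 6.76 and 9.60 CPM later and at 4.0 and 6.98 CPM early. The lowest library with the inhibitor thus lay above the highest without it. These levels rest on 1743 counts with the inhibitor and 66 without. The groups did not overlap, which held in the same direction for 4.89% of all tested genes. The log2 difference with over without the inhibitor was 4.99 ± 0.356 (SE), the second largest of 9888 tested genes. It was 5.56 ± 0.504 at passages 3 to 6, where it ranked 1, and 4.42 ± 0.506 at passages 0 to 1, where it ranked 31. Leaving out any single library gave 4.86 to 5.27 for the pooled difference. Summed fibroblast markers were lower with the inhibitor at passages 0 to 1 (98.9 to 147.9 against 259.0 and 512.0 CPM) and overlapped at passages 3 to 6 (66.8 and 76.5 against 71.0 and 89.9 CPM). The suprabasal keratin KRT10 was called lower with the inhibitor (900.1 against 4995 CPM, log2 change -2.24 ± 0.439, adjusted p = 0.00569), with libraries at 542.3 to 1367 against 1495 to 12971 CPM. The fibroblast marker DCN was called lower too (17.4 against 66.6 CPM, adjusted p = 0.0387), but at passages 3 to 6 it stood at 14.2 against 14.3 CPM. At passages 0 to 1 the melanocyte marker TYRP1 was called lower (6.35 against 116.2 CPM, adjusted p = 0.0285). That mean rests on replicate 1 without the inhibitor, where summed melanocyte markers stood at 262.7 CPM. In replicate 2 they stood at 7.41 CPM, within the 5.75 to 11.4 CPM of early libraries with the inhibitor. The part of these markers in the RGS2 difference was not tested.

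**Figure D1:**
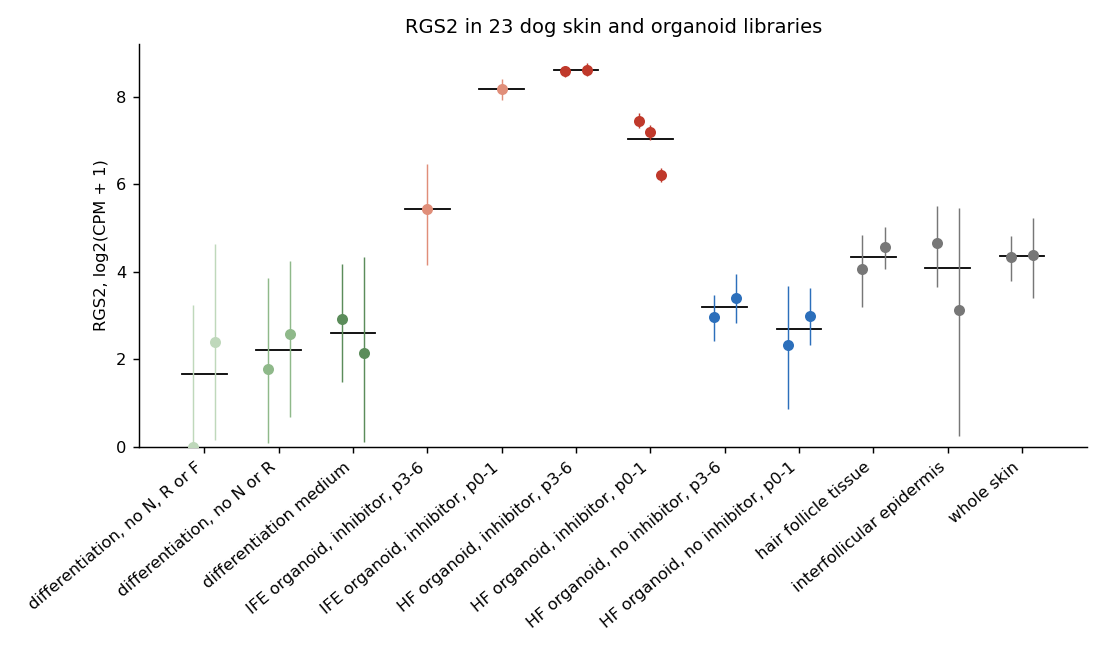
RGS2 level in each of the 23 libraries, as log2(CPM + 1), with groups along the horizontal axis (HF, hair follicle; IFE, interfollicular epidermis; p, passage; N, Noggin; R, R-Spondin-1; F, Forskolin). Points are libraries, thin lines their exact 95% binomial intervals for counting error, and black bars group means. The 7 libraries labelled with the inhibitor lie between 42.1 and 391.7 CPM, all above the 16 others, which lie between 0 and 24.1 CPM. The interval of the lowest of the 7 overlaps that of the highest of the others. The share of all tested genes with this split was not counted.

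Interfollicular organoids labelled with the inhibitor carried RGS2 too. The early library stood at 286.6 CPM (149 counts, exact 95% binomial interval 242.4 to 336.5 CPM). The later library was shallow, with 7 counts, and stood at 42.1 CPM (16.9 to 86.7). Early was thus above later in interfollicular organoids, while later was above early in follicle-derived ones, and with 1 interfollicular library at each passage that contrast has no replicate check.

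In tissue, RGS2 stood at 15.7 and 22.6 CPM in hair follicles, 24.1 and 7.71 CPM in interfollicular epidermis and 19.2 and 19.9 CPM in whole skin. These 3 tissues overlapped. In differentiation medium RGS2 was down to single reads. It had 0 and 1 counts without Noggin, R-Spondin-1 and Forskolin (0 and 4.30 CPM), 1 and 2 counts without Noggin and R-Spondin-1 (2.41 and 4.94 CPM), and 4 and 1 counts in the complete medium (6.63 and 3.42 CPM).

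By group mean, RGS2 ran from later follicle-derived organoids with the inhibitor (386.8 CPM) through early interfollicular (286.6), early follicle-derived (130.6) and later interfollicular ones (42.1) to whole skin (19.5), hair follicles (19.1) and interfollicular epidermis (15.9). Below these came later (8.18) and early (5.49) organoids without the inhibitor, then complete differentiation medium (5.03), that without Noggin and R-Spondin-1 (3.67), and that also without Forskolin (2.15). The interval of the later interfollicular library reached into the range of the early follicle-derived group. No neighbours from whole skin downwards were separated beyond the spread of their libraries.

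Follicle-derived organoids as a whole were compared with hair follicles. RGS2 averaged 132.8 CPM over the 4 organoid groups and 19.1 CPM in follicles, a log2 change of 1.02 ± 0.396. The organoid groups lay on both sides of the tissue. Against follicles, RGS2 was higher by 3.51 on the log2 scale in organoids with the inhibitor alone and changed by -1.48 in organoids without it, a split made after the values were seen. All libraries with the inhibitor were above both follicle libraries, and all without it were below both. That holds for 20.7% of tested genes in the first direction and 27.6% in the second. In interfollicular organoids RGS2 averaged 164.3 CPM, against 15.9 CPM in interfollicular epidermis, a log2 change of 2.52 ± 0.622, and all those organoids were labelled with the inhibitor. The change was 3.83 without epidermis replicate 1, 2.23 without replicate 2 and 3.90 in the early organoid library alone.

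Later follicle-derived organoids, over both media, had RGS2 above early ones by 1.01 ± 0.327 on the log2 scale, which did not pass the threshold (adjusted p = 0.341, edgeR quasi-likelihood test with Benjamini-Hochberg adjustment). With the inhibitor the 2 later libraries were above all 3 early ones, as were 11.3% of tested genes, and the log2 change there was 1.57 ± 0.365 (adjusted p = 0.194). Without the inhibitor it was 0.44 ± 0.538. The inhibitor difference at later passages exceeded that at early ones by 1.14 ± 0.666 on the log2 scale. Differentiation medium and interfollicular origin gave log2 changes that missed the threshold, -1.34 ± 0.589 over later organoids without the inhibitor (adjusted p = 0.129, 9 and 47 counts) and -1.03 ± 0.422 for interfollicular over follicle-derived organoids with it (adjusted p = 0.207). At early passage alone the last of these was 1.14, with the opposite sign.

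The PDE4 enzymes, which break down cAMP, were detected at a few reads per library. In follicle-derived organoids they were also higher with the inhibitor. PDE4B stood at 4.41 and 8.97 CPM later and at 7.40, 5.75 and 2.96 CPM early with the inhibitor, and at 1.41 and 0.418 CPM later and 2.67 and 0.436 CPM early without it. The groups did not overlap, as for 4.89% of all tested genes in that direction. The lowest library with the inhibitor was close to the highest without. PDE4B rested on 49 counts with the inhibitor and 9 without, and its log2 difference was 2.37 ± 0.637. PDE4D stood at 8.09 and 5.98 CPM later and at 8.07, 10.4 and 6.84 CPM early with the inhibitor, and at 1.41 and 3.34 CPM later and 0 and 3.05 CPM early without it. It did not overlap either, with 77 counts with the inhibitor and 20 without, and its log2 difference was 1.76 ± 0.494. That difference was 3.92 without the early no-inhibitor replicate 2, since the other early library held 0 reads.

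In tissue, PDE4D stood at 14.4 and 9.41 CPM in follicles, 7.24 and 0 CPM in interfollicular epidermis and 14.1 and 9.95 CPM in whole skin. It was lower in follicle-derived organoids than in follicles (4.84 against 11.9 CPM, log2 change -1.46 ± 0.503). The change was -2.54 without the early no-inhibitor replicate 2, and -0.58 in organoids with the inhibitor alone, a split made after the values were seen. PDE4B stood at 3.93 and 7.53 CPM in follicles, 14.5 and 7.71 CPM in interfollicular epidermis and 5.75 and 11.9 CPM in whole skin, and its log2 change in follicle-derived organoids over follicles was -1.25 ± 0.643, and -2.43 in those without the inhibitor alone. All 6 differentiation libraries had 0 PDE4B counts. The group floor there was 1.26 CPM, above the 1.01 CPM of later organoids without the inhibitor, so a difference was not detectable at this depth.

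CREM, the cAMP response element modulator, stood at similar levels with and without the inhibitor in follicle-derived organoids. It stood at 8.83 and 9.97 CPM later and at 5.38, 12.1 and 4.79 CPM early with the inhibitor, and at 6.76 and 9.60 CPM later and 5.33 and 9.16 CPM early without it, on 72 counts for each side. The groups overlapped, and the log2 difference was 0.05 ± 0.41. Interfollicular organoids had 0 and 6 CREM counts at later and early passage (0 and 11.5 CPM). In tissue CREM stood at 6.55 and 14.4 CPM in follicles, 14.5 and 7.71 CPM in interfollicular epidermis and 12.1 and 13.9 CPM in whole skin. The differentiation libraries held 0 to 3 counts each, 8 in all against 47 in later organoids without the inhibitor, and the log2 change of -1.34 ± 0.631 missed the threshold (adjusted p = 0.158).

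SIK1, a kinase that restrains CREB coactivators, was called lower in both kinds of organoid than in their tissue. It stood at 2.21 and 2.99 CPM later and 8.74, 5.18 and 5.70 CPM early with the inhibitor, and at 5.63 and 3.76 CPM later and 9.33 and 6.10 CPM early without it. Follicles stood at 13.1 and 17.6 CPM, above all 9 of these libraries, a direction without overlap that 19.7% of tested genes shared. SIK1 averaged 5.39 CPM in follicle-derived organoids and 15.3 CPM in follicles, a log2 change of -1.66 ± 0.382 (adjusted p = 0.00219), where 19% of all genes were called lower, and it was called with the inhibitor alone (-1.92) and without it alone (-1.39). Without follicle replicate 2 the change was -1.40 and the call was lost (adjusted p = 0.138). Interfollicular organoids held 1 SIK1 count in all (0 and 1.92 CPM), against 14 in interfollicular epidermis (24.1 and 30.8 CPM). The level was lower in organoids by a ratio of 17.7 with an exact 95% counting interval of 2.69 to 746.7 (adjusted p = 0.0091, where 4.5% of all genes were called lower), and the call was kept in all 9 alternatives and in the early organoid library alone. Whole skin stood at 21.1 and 19.9 CPM.

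SIK1 did not follow RGS2. With over without the inhibitor its log2 difference was -0.53 ± 0.396, and the 2 later libraries with the inhibitor, highest in RGS2, were the lowest in SIK1 among follicle-derived expansion libraries. The SIK1 change at later over early passage, -0.94 ± 0.395, missed the threshold (adjusted p = 0.605). The differentiation libraries stood at 2.41 to 9.88 CPM on 1 to 4 counts each, overlapping the expansion libraries.

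GNAS encodes the stimulatory G protein alpha subunit and was the most deeply counted member, with 29 to 1515 counts per library. Its locus gives several transcripts with a common 3′ end, which are counted here as a single gene. GNAS stood at 382.6 and 313.9 CPM later and 617.5, 275.6 and 345.4 CPM early with the inhibitor, and at 309.3 and 301.5 CPM later and 244.0 and 347.1 CPM early without it. The groups overlapped and the log2 difference was 0.33 ± 0.243. The highest library, early inhibitor replicate 1, also had the lowest mitochondrial share (5.35%), and the part of that share in the result was not tested.

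GNAS was lower in differentiation medium. It stood at 143.8 and 141.8 CPM without Noggin, R-Spondin-1 and Forskolin, at 144.5 and 138.3 CPM without Noggin and R-Spondin-1, and at 147.5 and 164.4 CPM in the complete medium. These 6 libraries lay between 138.3 and 164.4 CPM, below the 301.5 and 309.3 CPM of later expansion organoids without the inhibitor. The log2 change was -1.06 ± 0.283 (146.7 against 305.4 CPM, adjusted p = 0.0161), where 10.1% of 9730 genes were called lower. A non-overlapping lower level was found for 17.4% of genes. The call was lost without either expansion library (adjusted p = 0.133 and 0.092), with changes of -1.04 and -1.08, and in a fit of the compared groups only (-1.12, adjusted p = 0.0599). The differentiation libraries were deposited with another set of gene entries, 18113 with 17139 shared, so a difference in how the files were made and the medium cannot be told apart. Among tissues GNAS stood at 316.8 and 362.5 CPM in follicles, 212.4 and 223.6 CPM in interfollicular epidermis and 312.3 and 266.6 CPM in whole skin. Interfollicular organoids stood at 360.7 and 346.2 CPM later and early, and their log2 change over interfollicular epidermis, 0.70 ± 0.382, missed the threshold (adjusted p = 0.247).

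CREB1, the transcription factor that protein kinase A phosphorylates, had 0 to 10 counts per library and did not pass the filter on low counts. It had 29 counts in the 5 follicle-derived libraries with the inhibitor (1.99 to 6.05 CPM) and 18 in the 4 without it (0.845 to 4.0 CPM). Tissue held 7 counts in 6 libraries and differentiation medium 2 in 6. No difference in CREB1 was detectable at this depth.

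**Figure D2:**
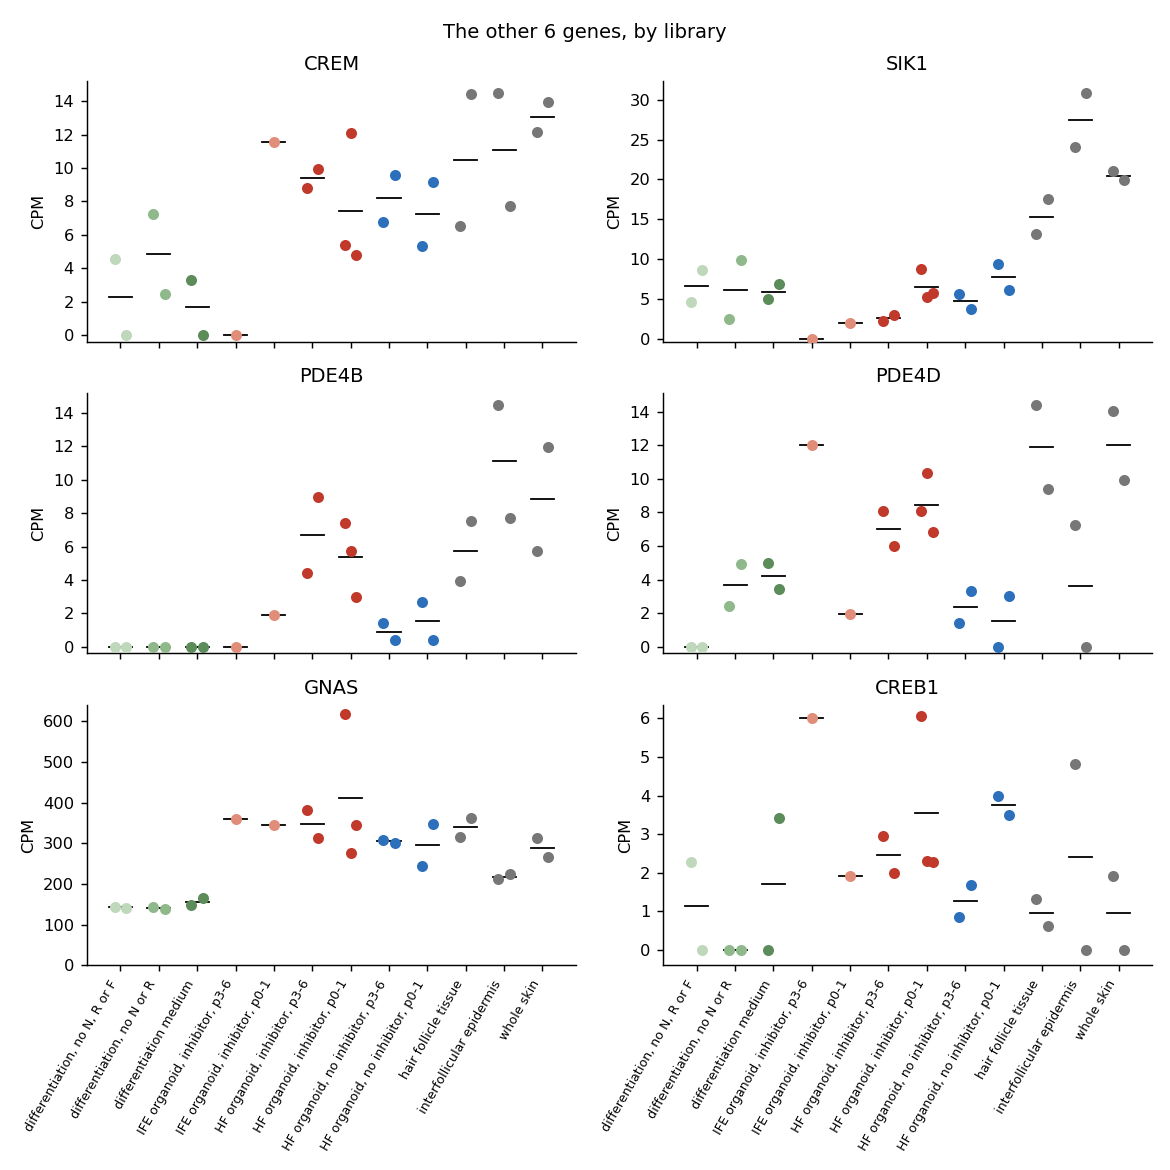
CPM of CREM, SIK1, PDE4B, PDE4D, GNAS and CREB1 in the 23 libraries, with points for libraries and bars for group means, and HF, IFE, p, N, R and F as for RGS2. PDE4B and PDE4D are higher in the 5 red follicle-derived libraries with the inhibitor than in the 4 blue ones without it, SIK1 is highest in the grey tissue libraries, and GNAS is near 140 to 165 in the green differentiation libraries.

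Forskolin withdrawal is the comparison aimed most directly at cAMP, and here depth was the limit. RGS2 had 1 count without Forskolin and 3 with it, and PDE4D had 0 and 3, so neither gives a fold. CREM had 2 counts without Forskolin and 4 with it, SIK1 4 and 5, and PDE4B 0 and 0. GNAS, with 96 and 116 counts, gave a log2 difference of 0.01 ± 0.386, which was -0.02 without replicate 2 of the libraries with Forskolin. Across all 9730 genes 0% were called by edgeR and 0 genes by DESeq2, while 330 had an edgeR p under 0.05 before adjustment. Of 61 tested pathway genes outside the set, 0 were called, with 3 at an unadjusted p under 0.05. The smallest p among them belonged to PRKACB, a catalytic subunit of protein kinase A (7 counts without Forskolin and 1 with it, adjusted p = 1), and RGS19, an RGS protein of inhibitory G proteins (4 and 16 counts, adjusted p = 1). The 19 tested CREB targets had a median log2 change of -0.28, against 0 over all genes. STC1, a secreted glycoprotein in that list, was picked out after its values were seen. In replicates 1 and 2 it stood at 6.85 and 0 CPM without Noggin, R-Spondin-1 and Forskolin (3 counts in all). Where Forskolin was kept it stood at 7.23 and 44.5 CPM (21 counts), and in the complete medium at 36.4 and 99.3 CPM. Replicate 1 thus hardly differed on Forskolin withdrawal, and the drop lay in replicate 2. The STC1 change on Forskolin withdrawal was not called (adjusted p = 1).

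Withdrawal of Noggin and R-Spondin-1 alone gave no call either, with 0% of genes called by edgeR, 0 genes by DESeq2 and 260 with an edgeR p under 0.05 before adjustment. GNAS changed by -0.14 ± 0.381 (141.4 against 155.9 CPM, adjusted p = 1), and the other members had 5 counts or fewer on each side. The smallest p among pathway genes belonged to AKAP13, a protein kinase A anchor (7 and 0 counts), and PDE2A, a phosphodiesterase (8 and 0 counts), both with an adjusted p of 1.

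The rest of the pathway was read from lists of 125 genes, 113 of them in the files and 63 tested. They were drawn up with results of these data known, so their direction is no independent evidence. With over without the inhibitor, 2 of 63 were called higher and 2 lower, against 1.92% and 0.758% of all genes. STC1 was higher by 2.54 ± 0.478 (133.5 against 21.3 CPM, adjusted p = 0.00397), a call kept in all 16 alternatives. Its libraries did not overlap (56.8 to 253.5 against 8.0 to 44.0 CPM), as for 4.89% of all tested genes in that direction. Its change was 3.45 without early no-inhibitor replicate 2. AREG, an EGF receptor ligand, was higher by 1.71 ± 0.46 (41.0 against 20.6 CPM, adjusted p = 0.0492). ID1, a repressor of differentiation that BMP signals also induce, was lower with the inhibitor (59.9 against 154.8 CPM, log2 change -1.40 ± 0.37, adjusted p = 0.0454), as was PTGER2, a prostaglandin receptor that acts through the stimulatory G protein. PTGER2 had 3 counts with the inhibitor and 69 without, a ratio of 25.5 with a counting interval of 8.38 to 126.8 (adjusted p = 0.0387). The calls of AREG, ID1 and PTGER2 did not last: each was lost when any of several single libraries was left out, with 5, 6 and 8 of 16 alternatives still calling them. Without early no-inhibitor replicate 2 the PTGER2 change could not be estimated (-1.51 ± 3130), since no early library left held a count. AREG changed by 2.33 without later no-inhibitor replicate 2. Of the 20 tested CREB targets 2 were thus higher and 1 lower, with a median log2 change of 0.24, while the other 17 did not pass the test.

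**Figure D3:**
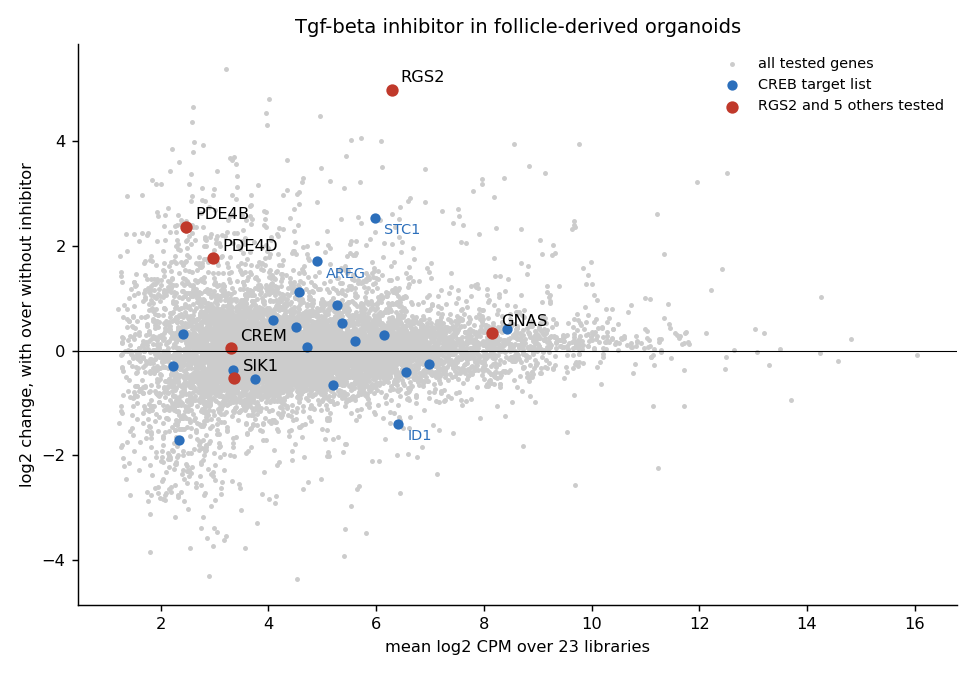
Log2 change with over without the Tgf-beta inhibitor in follicle-derived organoids (vertical axis) against mean log2 CPM over the 23 libraries (horizontal axis) for the 9888 tested genes. RGS2, at 4.99, stands near the top, PDE4B (2.37) and PDE4D (1.76) lie above the bulk, and CREM, SIK1 and GNAS lie near 0, as do most of the 20 CREB targets in blue.

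At passages 0 to 1, 2 pathway genes were called higher with the inhibitor and 0 lower, against 0.85% and 0.455% of all genes. AREG stood at 19 to 53.1 CPM with it, against 2.67 and 4.36 CPM without it (log2 change 2.94 ± 0.716, adjusted p = 0.0466). PTGS2, the inducible cyclooxygenase, stood at 34.3 to 63.8 CPM, against 9.16 and 10.7 CPM (2.29 ± 0.462, adjusted p = 0.017). Both calls were lost without either early no-inhibitor library, that of AREG also without early inhibitor replicate 1 (2.31) and that of PTGS2 without replicate 3. At passages 3 to 6, 0 pathway genes were called by edgeR and 0 by DESeq2, while 5 had an edgeR p under 0.05 before adjustment, where 0.314% of all genes were called. The 2 with the smallest p were RGS4, an RGS family member (21.0 against 1.48 CPM, adjusted p = 0.206), and STC1 (93.5 against 16.6 CPM, adjusted p = 0.231). RGS4 stood at 8.09 and 33.9 CPM with the inhibitor there and at 0.418 and 2.54 CPM without it. STC1 stood at 56.8 and 130.2 CPM with it and at 8.77 and 24.5 CPM without it. For PTGS2 and AREG the libraries overlapped. PTGS2 stood at 19.9 and 56.7 CPM with it and 33.8 and 46.8 CPM without, and AREG at 34.9 and 67.7 CPM with it and 15.5 and 59.7 CPM without. The difference between the passages was not called for PTGS2 (-2.34 ± 0.624 on the log2 scale) or AREG (-2.46 ± 0.917), both with an adjusted p of 1. In that comparison 0% of genes were called, 267 had an unadjusted p under 0.05 (4 in the pathway lists), and DESeq2 called 1 (0 in the pathway lists).

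Later over early passage gave 0 called pathway genes by edgeR and 1 by DESeq2, while 12 had an edgeR p under 0.05 before adjustment, where 0.354% of all genes were called. AREG was nearest (44.4 against 17.1 CPM, log2 change 2.01 ± 0.453, adjusted p = 0.0581), followed by RGS12, an RGS family member (8.29 against 3.13 CPM, adjusted p = 0.351).

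In differentiation over expansion medium, 2 of 61 pathway genes rose and 10 fell, where 4.4% and 10.1% of all genes did and the median change of all genes was -0.14. The immediate early gene FOS fell to 3.61 CPM, against 141.5 CPM in expansion (-5.38 ± 0.874, adjusted p = 0.000385), and EGR1, an early response transcription factor, to 5.02 CPM, against 54.3 CPM (-3.37 ± 0.68, adjusted p = 0.00247). Both expansion levels came largely from replicate 1, with FOS at 257.5 and 25.5 CPM and EGR1 at 101.4 and 7.10 CPM, and both calls were lost without it, at -2.90 and -0.44. Without replicate 2 they were -6.24 and -4.26, and FOS reached -7.37 without complete-medium replicate 1. PDE8A, a cAMP phosphodiesterase, fell by 2.54 ± 0.514 on the log2 scale (2.04 against 12.2 CPM, adjusted p = 0.00251), and RGS20, an RGS protein of inhibitory G proteins, by 2.50 ± 0.516 (6.15 against 29.7 CPM, adjusted p = 0.00288), both called in all 15 alternatives. PDE8A changed by -3.85 without replicate 1 of the libraries lacking Forskolin, and RGS20 by -4.05 without replicate 2 of those lacking only Noggin and R-Spondin-1. The rises were in NFIL3, a bZIP transcription factor (49.1 against 14.8 CPM, adjusted p = 0.0318), and BHLHE40, a clock-related repressor (137.8 against 32.9 CPM, adjusted p = 0.0491). Of 15 alternatives, 9 still called NFIL3 and 6 BHLHE40, and both calls were lost without any of 5 single libraries. Of the 19 tested CREB targets 2 rose and 4 fell, with a median of -0.74. Without expansion replicate 1, 4 pathway genes were called in place of 12.

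Follicle-derived organoids differed from follicles in many pathway genes, 7 higher and 22 lower of 63, where 9.06% of all genes were higher and 19% lower. STC1 (77.4 against 5.73 CPM, 3.09 ± 0.74), PTGS2 (34 against 3.53 CPM, 3.06 ± 0.529) and RGS20 (23.4 against 2.88 CPM, 2.90 ± 0.595) were higher, with adjusted p of 0.00303, 0.000123 and 0.000735. GNA15, a Gq family alpha subunit, had 393 counts in organoids and 3 in follicles, a ratio of 16.3 with a counting interval of 5.54 to 79.4 (adjusted p = 0.000866). MITF, the pigment cell transcription factor, was lower (3.26 against 49.7 CPM, -4.17 ± 0.417, adjusted p = 7.74e-08), as were PCK1, a gluconeogenic enzyme (-5.05 ± 0.642), PLCB4, a phospholipase activated by Gq (-5.25 ± 0.709), and PKIA, a protein kinase A inhibitor (-4.0 ± 0.576). Of 13 tested genes of protein kinase A, its inhibitors and its anchors, 6 were lower and 0 higher, and of 20 CREB targets 3 were higher and 7 lower. STC1 was not called without follicle replicate 1, nor in organoids without the inhibitor alone (1.82, adjusted p = 0.0878), and GNA15 was not called without follicle replicate 2 (2.73). Called values also moved to 4.62 for GNA15 without follicle replicate 1, 3.72 for STC1 without follicle replicate 2, -6.0 for PLCB4 without early no-inhibitor replicate 1 and -5.64 for PCK1 without later inhibitor replicate 2.

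Markers of several other cell types moved with this comparison. Adipocyte markers (8 of 8 in the files) overlapped, with sums of 77.3 to 658.9 CPM in follicle-derived organoids and 632.3 to 1175 CPM in follicles. All tested markers of smooth muscle (7), fibroblasts (10), immune cells (4), endothelium (6) and melanocytes (3) were lower in follicle-derived organoids, and 5 of 9 keratinocyte markers were higher. Smooth muscle and pericyte markers (8 of 10 in the files) summed to 39.7 to 206.7 CPM in follicle-derived organoids and 1804 to 2319 CPM in follicles. Fibroblast markers (10 of 10) summed to 66.8 to 512.0 CPM in organoids and 4531 to 7554 CPM in follicles, and melanocyte markers (4 of 7) to 5.75 to 262.7 CPM and 583.9 to 1011 CPM. Immune markers (9 of 10) summed to 5.33 to 14.8 CPM in organoids and 107.2 to 238.3 CPM in follicles, and PTPRC, the pan-leukocyte marker, was at 0 in every expansion organoid library. Endothelial markers (10 of 10) summed to 3.19 to 9.33 CPM in organoids and 88.4 to 92.9 CPM in follicles. Their part in the changes of the 7 genes and the pathway genes was not tested.

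Interfollicular organoids over interfollicular epidermis gave 1 called higher and 5 lower of 63 pathway genes, with SIK1 called beside them, where 6.78% of all genes were higher and 4.5% lower. STC1 was higher (155.2 against 8.68 CPM, 3.79 ± 1.06, adjusted p = 0.0244). GNAI3, an inhibitory G protein subunit, was lower (136.3 against 329.0 CPM, -1.42 ± 0.363, adjusted p = 0.0143), as was PRKACB (6 against 22 counts, adjusted p = 0.0354). CALCRL, the calcitonin-like receptor, was lower in organoids (0 against 16 counts, adjusted p = 0.0397). So was RGS1, an RGS gene of lymphoid cells (0 against 21 counts, adjusted p = 0.0346). Epidermis stood 6.73-fold (CALCRL) and 8.83-fold (RGS1) above a floor of 3 counts over both organoid libraries. With counting error on both sides, the exact intervals of these ratios began lower, at 4.865-fold for CALCRL and 6.569-fold for RGS1. Immune markers summed to 78.2 and 13.5 CPM in later and early interfollicular organoids and to 598.5 and 670.8 CPM in epidermis. Fibroblast markers summed to 805.6 and 175.0 CPM in these organoids and to 3688 and 1288 CPM in epidermis, and smooth muscle and pericyte markers to 414.8 and 57.7 CPM and to 1043 and 616.8 CPM. Endothelial markers summed to 12 and 1.92 CPM in organoids and to 26.5 and 54.0 CPM in epidermis. The part of these markers in the changes was not tested. None of the 6 pathway genes was called without epidermis replicate 1, which leaves only the shallowest library. In the early organoid library alone STC1 was still called (4.73, adjusted p = 0.0116), while GNAI3 (-0.83) and PRKACB (-1.98) were not.

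Between tissues, 2 pathway genes were lower in follicles than in interfollicular epidermis and 0 higher, where 0.738% and 2.05% of all genes were and the median of all genes was 0.21. GNAI3 was among them (137.5 against 329.0 CPM, -1.29 ± 0.34, adjusted p = 0.042), and it lost its call without follicle replicate 1 or 2 or epidermis replicate 1. None of the 6 tested members was called, and SIK1, higher in both epidermis libraries, changed by -0.75 ± 0.557 (adjusted p = 0.542). Between interfollicular and follicle-derived organoids with the inhibitor, 1 pathway gene was higher and 1 lower, where 5.86% and 0.516% of all genes were and the median of all genes was -0.32. CREBBP, a CREB coactivator, was higher in interfollicular ones (2.13 ± 0.522, adjusted p = 0.0124), with 174.4 and 9.62 CPM in the later and early libraries, so that its mean rests on the shallow later library, and at early passage alone the change was -0.41. PTGS2 was lower (0 and 28.8 CPM later and early, against 19.9 to 63.8 CPM, adjusted p = 0.0376), a call lost without either of 2 follicle-derived libraries and at early passage alone (-0.73).

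Over the 12 group means of log2 CPM, Pearson's r with RGS2 was 0.75 for GNAS, 0.47 for PDE4B, 0.43 for PDE4D, 0.35 for CREM and -0.37 for SIK1, while CREM and PDE4B had 0.77, PDE4B and SIK1 0.61 and CREM and SIK1 0.55. These are descriptions over groups that share their depth and composition, and for the low-count members they partly reflect the prior count. Library spread within groups, as the SD of log2 CPM, was smallest for GNAS (0.302) and largest for CREM (0.693).

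Of 9729 genes listed in all files, those most like RGS2 by Pearson's r over the 12 group means were GLIPR1 (0.93), EZR (0.92), CH25H (0.90), TIMP1 (0.90) and PPP1R1B (0.89). EZR encodes ezrin, which links actin to the membrane, CH25H a cholesterol hydroxylase, TIMP1 an inhibitor of metalloproteinases, and PPP1R1B a phosphatase inhibitor that protein kinase A activates. TIMP1 averaged 2746 and 2543 CPM in later and early follicle-derived organoids with the inhibitor, against 157.1 and 185.0 CPM without it. GLIPR1 averaged 37.0 and 25.5 CPM, against 4.13 and 3.77 CPM, and CH25H 18.4 and 8.95 CPM, against 0.908 and 2.42 CPM. EZR had a smaller range, 938.1 and 933.1 CPM against 469.4 and 390.8 CPM. Ranking by Spearman's rho instead named 5 other genes, with B3GNT2 (0.96) first, so the names depend on the measure. For CREM the nearest by Pearson's r were LOC102153599 (0.95), an entry whose symbol a spreadsheet had turned into a date (0.94), AKAP17A (0.94), ADCY9, an adenylyl cyclase (0.93), and EPS15L1 (0.93), and only EPS15L1 was also among the 5 nearest by rho. CREM, LOC102153599, AKAP17A, ADCY9 and EPS15L1 all stood at 0 CPM in the shallow later interfollicular library. Their r values thus partly reflect the prior count.

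**Figure D4:**
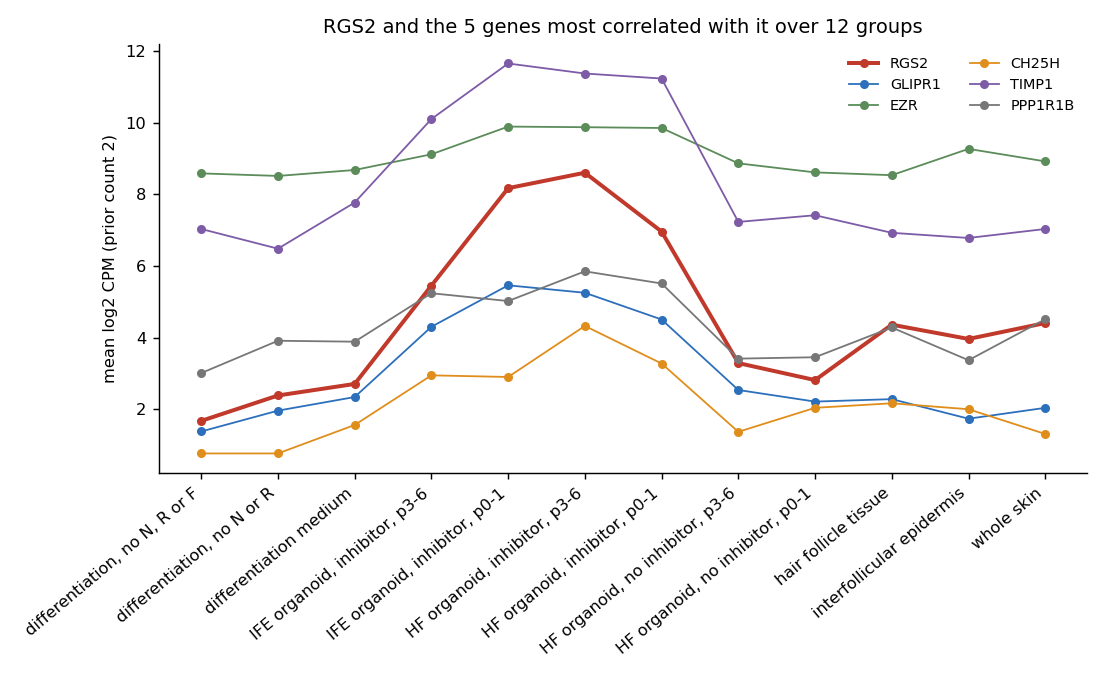
Mean log2 CPM (prior count 2) in the 12 groups for RGS2 and the 5 genes with the highest Pearson correlation to it, with abbreviations as for RGS2. All 6 are higher in the 4 inhibitor groups than in the other follicle-derived groups, and TIMP1 and EZR lie well above the rest in level.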

How the data were processed

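Values per gene, some with a fraction, were deposited by the authors as estimated counts. Reads were aligned with BWA 0.6.2-r126 to the dog build CanFam3.1, per the submitters' processing notes. Annotation, counting tool and any collapse of molecular barcodes: not given in the sources used here. No count of the 7 members held a fraction. All were also matched by symbol to a RefSeq gene table of another assembly, from which no coordinates were taken.

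Counts were rounded. The 4 entries that name no gene (0.461 to 2.158% of counts) were left out. In edgeR 4.0.16 (R 4.3.3), the default filter on the 12 groups kept 9888 genes, 9730 of which the differentiation files also list, and 6 of the 7 members. Entries that the differentiation files do not list were set to 0 in the fit and left out of comparisons with those libraries. CREB1 was given as counts and CPM only. A quasi-likelihood model with TMM scaling and 12 group means shared its spread over all groups (11 residual degrees of freedom, common dispersion 0.0986). The 2 interfollicular organoid groups of 1 library are assumed to vary like the rest. A gene was called at a Benjamini-Hochberg adjusted p under 0.05 over all genes tested. SE is the log2 change over the square root of F. Intervals of single levels and of ratios of counts are exact binomial, both at 95%, for counting error only.

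The members, the pathway and marker lists, the comparisons and the alternatives (other scaling, no filter, DESeq2 1.42.0, compared groups only, replicate block, counts with fractions, each library left out) were chosen with earlier results of these data known. Pathway genes are named by smallest p, at most 4 called ones per direction and comparison, or at most 2 where none was called. The values of 1 called pathway gene are not reported here. The scripts were tested on simulated data.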

Additional observations from a re-analysis of the deposited data

Results flagged for a closer look

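GNAI3, an inhibitory G protein alpha subunit of the cAMP production list, was picked out among 69 member and pathway genes because all its libraries moved in opposite directions at the 2 passages. At passages 3 to 6 it stood at 153.8 and 159.5 CPM with the Tgf-beta inhibitor and at 180.9 and 177.9 CPM without it, lower in both. At passages 0 to 1 it stood at 236.1, 196.2 and 199.0 CPM with the inhibitor and at 153.3 and 147.8 CPM without it, higher in all 3. The difference between these effects, later minus early, was -0.68 ± 0.445 on the log2 scale and was not called (adjusted p = 1, edgeR interaction term). How many of all 9888 tested genes meet the same rule was not counted, so the pattern is not shown to be particular to GNAI3.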

How the results depend on the processing

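The RGS2 difference with over without the inhibitor kept its direction in every alternative run, as did SIK1 in interfollicular organoids over epidermis, which also kept its call. Alternatives added after seeing the data turned the sign of RGS2 in follicle-derived organoids over follicles (-1.48 in cultures without the inhibitor only), and, at early passage only, of RGS2 (1.14) and CREBBP (-0.41) in interfollicular over follicle-derived organoids, where 0 pathway genes were then called. GNAS on Forskolin withdrawal, near 0 throughout, was -0.02 with library totals. Counts of called pathway genes moved more. With DESeq2 size factors they were 1 for the inhibitor early and 1 for interfollicular over follicle-derived organoids, and with library totals 1 for later over early passage. With no filter they were 6 for the inhibitor early, 2 later, 11 for interfollicular organoids over tissue, 6 for later over early passage and 4 for follicle over interfollicular tissue. With only the compared groups they were 2 for the inhibitor pooled, 0 early, 3 later, 6 for differentiation over expansion, 7 for follicle over interfollicular tissue and 1 for interfollicular over follicle-derived organoids. DESeq2 gave 1 for later over early passage and 1 for interfollicular over follicle-derived organoids. The causes were not tested, beyond the fewer or more genes and libraries those settings hold.

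Same-numbered libraries gave r from -0.25 to 0.44 in 34 pairs. The 10 pairs over 0.1 all hold differentiation libraries, whose 3 groups gave 0.34 to 0.44 with each other. With 2 numbers a group and no label that says what a number marks, the numbers were not taken as pairs. With the replicate block the counts were 1 for the inhibitor pooled, 0 early, 3 for interfollicular organoids over tissue, 1 for follicle over interfollicular tissue and 1 for interfollicular over follicle-derived organoids, and BHLHE40 lost its call in differentiation over expansion (1.72, adjusted p = 0.0723, edgeR).

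Leaving out single libraries gave counts of 1 to 4 for the inhibitor pooled, 0 to 4 early, 4 to 14 for differentiation over expansion, 14 to 30 for follicle-derived and 0 to 5 for interfollicular organoids over tissue, 0 to 2 for later over early passage, 0 to 2 for follicle over interfollicular tissue and 1 to 2 for interfollicular over follicle-derived organoids. The count of 14 for follicle-derived organoids came without follicle replicate 2, and 19 without replicate 1. Depth limits CREB1, PDE4B and the differentiation libraries most.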
